A study of Cavia porcellus with 34 samples.

Results

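GABA-A receptor subunit genes were followed in RNA punched from the paraventricular nucleus (PVN) of the guinea pig hypothalamus, whose neurons start the hormonal response to stress. Of 7 subunit genes chosen by symbol, GABRA2, GABRA3, GABRA5, GABRB2, GABRG1 and GABRD were found among the 11648 genes shared by the 3 generation tables, and these 6 are the members described. GABRB1 was not analysed here. All animals were juvenile Dunkin-Hartley females, aged 40 days, from the paternal line of descent. Founder females (F0) were given 3 courses of saline (Veh) or of the synthetic glucocorticoid (sGC) betamethasone at 1 mg/kg while pregnant, and F1 females were their daughters. F2 and F3 females descended from them through sires mated with naïve females and were not themselves treated. Each arm held 5 animals in F1, 5 in F2 and 6 in F3. Micropunches of the PVN can also hold adjacent hypothalamic tissue.

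GABA-A receptors are chloride channels built of 5 subunits, usually alpha and beta subunits with a gamma or a delta subunit, and they carry the fast inhibition that restrains PVN neurons. Receptors with a gamma subunit and the alpha 2 or alpha 3 subunit lie mainly at synapses, where they answer brief pulses of GABA. Receptors with the delta subunit, usually with alpha 4 in the forebrain, and many with alpha 5 lie outside synapses and hold a steady tonic current, and those with delta are especially sensitive to neurosteroids.

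Values are normalized counts, which the authors had already corrected and rounded, and each generation was normalized in a table of its own, so levels are compared within a generation only. Gene lengths were not used, so levels are not compared between genes. Sums of normalized counts over all genes ranged from 1.56e+07 to 2.19e+07 per animal in F1, from 1.56e+07 to 1.94e+07 in F2 and from 1.87e+07 to 1.90e+07 in F3. Folds are given on the log2(value + 1) scale as sGC minus Veh, tested by limma with Benjamini-Hochberg adjustment over all genes at a threshold of 0.05. The groups of F1 and F2 also differed in scale, so results on median-of-ratios size factors are given where they change a call. In F1, 0.657% of 11874 genes passed on the deposited scale and 17.3% with size factors, with 72 higher (0.606%) and 6 lower (0.0505%) against 1006 higher and 1052 lower. In F2 none of 11965 genes passed on either scale, 0% in each case, although 11.7% had an unadjusted p under 0.05. In F3 0.0506% of 11866 genes passed, and 0.0421% with size factors. All 8 genes of a PVN neuron list, among them AVP, OXT, CRH and SIM1, were detected in every group. The F3 sGC replicates 5 and 6 came from a second sequencing batch, in which 2 of the Veh animals were sequenced again. Those Veh animals enter here by their first libraries.

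On the deposited scale no member passed the threshold in any generation. With size factors 1 of the 6, GABRG1 in F1, passed, beside 17.3% of all genes in F1. In F1 GABRG1 was at 1.58-fold of Veh in the sGC animals (limma, adjusted p = 0.0569). GABRD was at 0.709-fold in F1 and at 1.33-fold in F3, neither past the threshold. GABRA2, GABRA3, GABRA5 and GABRB2 differed by at most 0.14 on the log2 scale in all 3 generations. The median log2 fold change over the 6 members was 0.05 in F1, -0.03 in F2 and 0.02 in F3, beside medians over all genes of 0.07, -0.08 and -0.0016. A log2 fold change above 0 was seen for 4 of 6 members in F1, 2 of 6 in F2 and 4 of 6 in F3, beside 63.8%, 24.5% and 49% of all genes. With size factors these counts were 3, 4 and 4 of 6, and the medians over all genes were then 0.0033, -0.0020 and -0.00021.

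**Figure D1:**
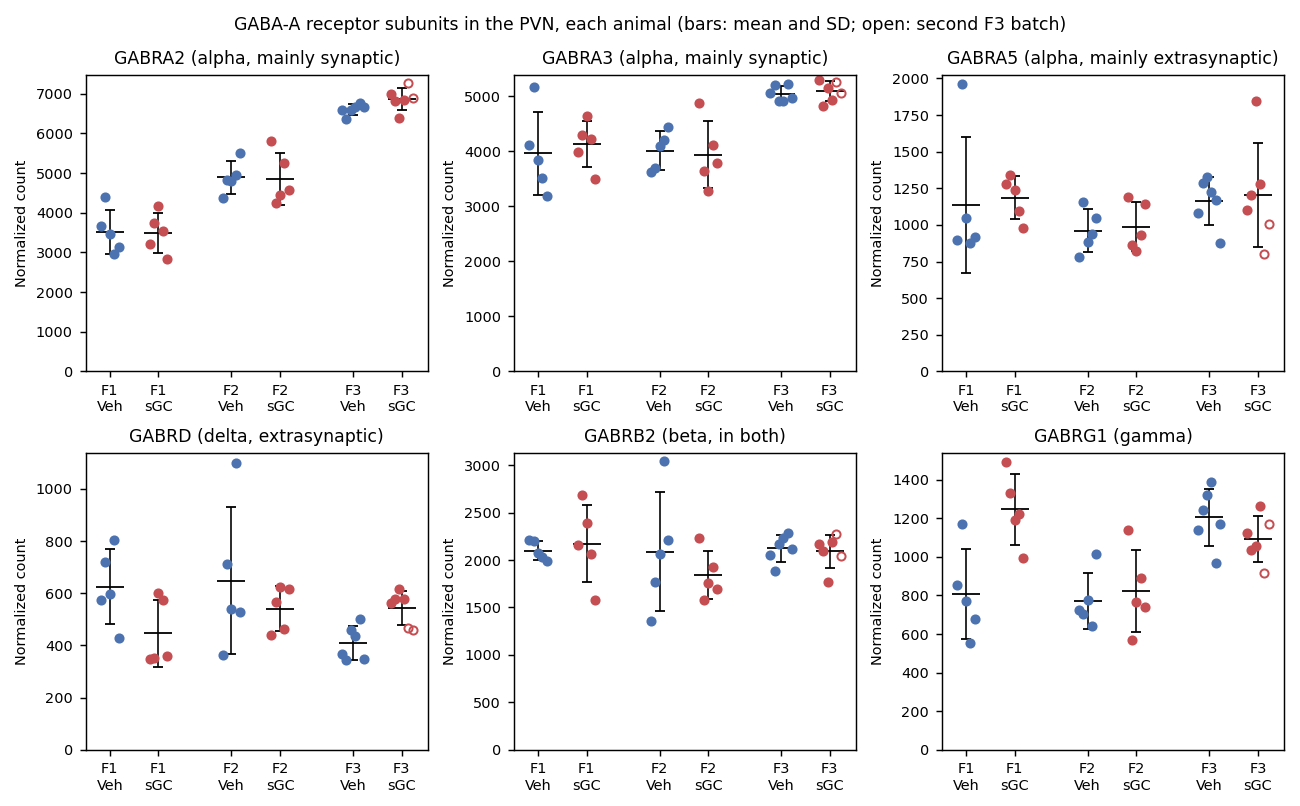
Normalized counts (y axis, from 0) of the 6 members in each animal, by generation and treatment (x axis), with the group mean and SD as bars and the 2 F3 animals of the second batch as open circles. In F1 all 5 sGC animals had at least 992 normalized counts of GABRG1 and 4 of 5 Veh animals had at most 854, while in F3 the 4 first-batch sGC animals had 562 to 617 of GABRD, above every Veh animal.

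GABRA2 and GABRA3 encode alpha subunits of mainly synaptic receptors, and GABRA2 predominates at many forebrain synapses. GABRA2 in F1 Veh was 3657, 4397, 3463, 2956 and 3143 normalized counts in replicates 1 to 5, and in F1 sGC it was 3221, 3736, 4168, 3541 and 2838. The groups overlapped over almost their whole range, with a log2 fold change of -0.0075 (95% interval -0.28 to 0.26; limma, adjusted p = 0.990). In F2 the values were 4375, 4814, 4812, 4961 and 5511 in Veh and 5814, 4237, 4437, 5254 and 4563 in sGC, and both the lowest and the highest animal were sGC. The F2 log2 fold change was -0.016 (95% interval -0.22 to 0.19; adjusted p = 0.951).

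In F3 the spread of GABRA2 was far smaller, from 6360 (median 6636) to 6761 in Veh and from 6384 (median 6866.5) to 7265 in sGC, with overlapping groups. The log2 fold change was 0.054 ± 0.028 (SE; adjusted p = 0.438), and its 95% interval reached only from -0.0058 to 0.11. GABRA3, which takes the place of GABRA2 at other synapses, had means of 3964 ± 756 (SD, n = 5) in Veh and 4127 ± 422 (SD, n = 5) in sGC of F1. Its log2 fold changes were 0.072, -0.035 and 0.013 in F1, F2 and F3, with adjusted p-values of 0.866, 0.902 and 0.891. The 95% intervals were widest in F1, from -0.20 to 0.34, and narrowest in F3, from -0.045 to 0.071. For both synaptic alpha subunits a difference was not detected, and the intervals were narrowest in F3. The authors had corrected F3 for batch and removed 2 directions from it, which the intervals do not take into account. How far this narrowed them was not tested.

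GABRA5, whose alpha subunit serves tonic inhibition in hippocampus and elsewhere, was 895, 1962, 1044, 873 and 916 normalized counts in F1 Veh replicates 1 to 5. It was 1282, 1338, 1235, 1096 and 978 in the F1 sGC animals. Replicate 2 of Veh stood far above every other animal, and 4 of the 5 sGC animals lay above the other 4 Veh animals. The log2 fold change was 0.13 ± 0.17 (SE; adjusted p = 0.825), and without Veh replicate 2 it was 0.34 (adjusted p = 0.0816). In F2 it was 0.036 ± 0.13 (SE; adjusted p = 0.918) and in F3 0.020 ± 0.16 (SE; adjusted p = 0.976). The F3 sGC group was wide, from 800 (median 1151) to 1847 against 875 (median 1197.5) to 1327 in Veh, and the second-batch animals were the lowest of the sGC animals with 800 and 1008.

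GABRD encodes the delta subunit, which marks extrasynaptic receptors. In F1 Veh replicates 1 to 5 had 574, 719, 596, 803 and 428 normalized counts, and in F1 sGC replicates 1 to 5 had 346, 353, 601, 572 and 360. Replicates 1, 2 and 5 of sGC lay below every Veh animal, while replicates 3 and 4 lay within the Veh range. GABRD was 0.709-fold of Veh, a log2 fold change of -0.50 ± 0.18 (SE; 95% interval -0.87 to -0.12) that did not pass (limma, adjusted p = 0.210). An unadjusted p under 0.05 with a lower value in sGC was seen for 1.46% of genes in F1. The size factor scale gave -0.56 ± 0.20 (SE; adjusted p = 0.0764), and the exact two-sided permutation test gave p = 0.0794, where 0.00794 is the smallest it allows.

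In F2 GABRD was 362, 712, 540, 1099 and 529 normalized counts in Veh and 438, 567, 622, 462 and 617 in sGC. The sGC animals lay within the Veh range, which was set by replicates 1 and 4 of Veh. The log2 fold change was -0.18 ± 0.23 (SE; adjusted p = 0.772). Without Veh replicate 4 it was 0.040.

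In F3 GABRD ranged from 344 (median 401) to 502 normalized counts in Veh and from 457 (median 569) to 617 in sGC. The 4 first-batch sGC animals, with 562, 576, 617 and 578, lay above every Veh animal, and the 2 second-batch animals, with 468 and 457, lay within the Veh range. GABRD was 1.33-fold of Veh, a log2 fold change of 0.41 ± 0.10 (SE; 95% interval 0.20 to 0.63) that did not pass (limma, adjusted p = 0.125), although 6.19% of genes had an unadjusted p under 0.05 with a higher value in sGC. The exact two-sided permutation test gave p = 0.0130 (smallest possible 0.00216). In the first batch alone the log2 fold change was 0.53 (adjusted p = 0.198), where 0.0168% of genes passed, and 1.27% of all genes were then higher in every sGC than in every Veh animal. With the directions that the authors' correction had removed from the F3 table as covariates, the adjusted p was 0.377.

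GABRB2 encodes a beta subunit of many synaptic receptors. In F1 Veh it was 2207, 2203, 2073, 2029 and 1988 normalized counts, a narrow range, and in F1 sGC 2155, 2683, 2389, 2065 and 1582. The sGC animals lay on both sides of the Veh animals, with a log2 fold change of 0.030 ± 0.13 (SE; adjusted p = 0.947). In F2 Veh the range was wide, from 1354 in replicate 1 to 3047 in replicate 4, and the sGC animals lay within it from 1582 to 2235. The log2 fold changes were -0.14 ± 0.17 (SE; adjusted p = 0.753) in F2 and -0.025 ± 0.058 (SE; adjusted p = 0.904) in F3.

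GABRG1 encodes a gamma subunit of restricted distribution in the brain. In F1 Veh replicates 1 to 5 had 854, 1173, 771, 552 and 679 normalized counts, and in F1 sGC replicates 1 to 5 had 1493, 1333, 1189, 1224 and 992. Veh replicate 2 lay above the lowest sGC animal, and the other 4 Veh animals lay below all sGC animals. GABRG1 was 1.58-fold of Veh (95% interval 1.26 to 1.99), a log2 fold change of 0.66 ± 0.16 (SE) that fell just short of the threshold (limma, adjusted p = 0.0569). With size factors GABRG1 rose by 0.60 ± 0.10 (SE; limma, adjusted p = 0.00498), and the groups then did not overlap, with a highest Veh value of 977 and a lowest sGC value of 1095 on that scale. On the size factor scale 8.47% of genes rose in F1 and 7.07% were higher in every sGC than in every Veh animal. The exact two-sided permutation test on the deposited scale gave p = 0.0159. Left out in turn, 3 animals (Veh replicate 2 and sGC replicates 3 and 5) brought GABRG1 past the threshold on that scale. In a bulk punch a change in the number of cells that use a gene and a change in RNA per cell cannot be told apart.

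In F2 GABRG1 was 727, 702, 775, 640 and 1016 normalized counts in Veh and 1141, 570, 768, 890 and 740 in sGC, and the lowest and the highest animal were both sGC. The F2 log2 fold change was 0.071 ± 0.17 (SE; adjusted p = 0.879). In F3 it ranged from 971 (median 1208) to 1389 in Veh and from 916 (median 1090) to 1265 in sGC, with overlapping groups and a log2 fold change of -0.14 ± 0.085 (SE; adjusted p = 0.523).

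**Figure D2:**
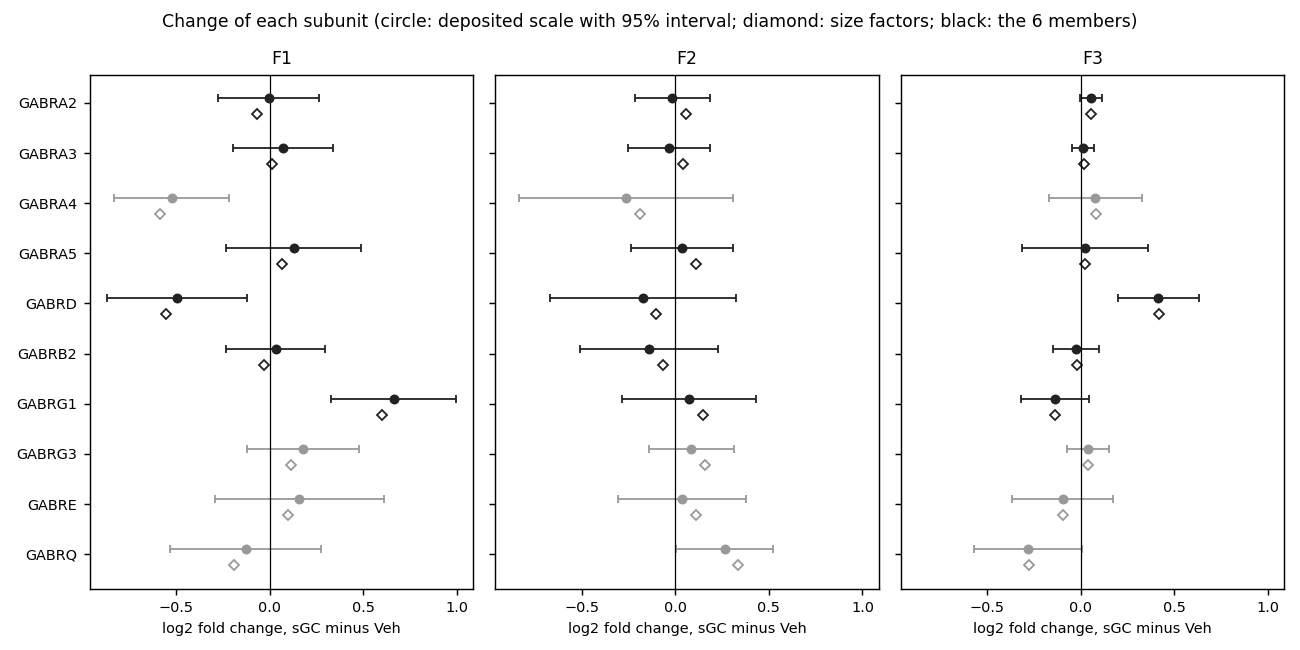
Log2 fold change, sGC minus Veh (x axis), of the 6 members and 4 other subunits (y axis) in F1, F2 and F3, on the deposited scale with 95% intervals (circles) and with size factors (diamonds); black marks the 6 members and grey the other subunits. GABRG1 (0.66) and GABRD (-0.50) lay farthest from 0 among the members in F1 and GABRD (0.41) in F3, and the intervals of F3 were narrower for most subunits.

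The change of GABRG1 differed between F1 and F3 in a limma fit of all 32 animals. The F1 log2 fold change exceeded that of F3 by 0.80 ± 0.21 (SE; adjusted p = 0.0350), where 3.13% of 11429 genes passed. The exact permutation of treatment labels within generations gave an unadjusted p = 0.00502. This fit shares 1 spread over the 3 tables, although values varied less in F3. With a spread of its own for each generation the adjusted p was 0.0862 on the deposited scale, where 1.49% of genes passed, and 0.00190 with size factors, where 20% passed. Leaving out 1 animal at a time gave 0.68 to 0.95 and lost the threshold in 10 of 22 cases. F1 also exceeded F2 for GABRG1 by 0.59 ± 0.22 (SE; adjusted p = 0.0964), which did not pass, while 7.64% of all genes did.

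For GABRD the F1 log2 fold change lay 0.91 below that of F3 (difference -0.91 ± 0.27, SE; adjusted p = 0.0582), so the lower values in F1 and higher values in F3 did not pass as a difference on the deposited scale. With size factors the difference was -0.97 ± 0.30 (SE; adjusted p = 0.0228), where 17.6% of genes passed, and the exact permutation on the deposited scale gave an unadjusted p = 0.00302. With a spread of its own for each generation the adjusted p was 0.124 on the deposited scale and 0.0101 with size factors. F2 lay between, with differences of -0.32 ± 0.29 (SE; adjusted p = 0.528) for F1 minus F2 and -0.59 ± 0.27 (SE; adjusted p = 0.523) for F2 minus F3, where 0.00875% of genes passed. None of the differences of GABRA2, GABRA3, GABRA5 and GABRB2 passed, and the largest of them was 0.17 for GABRB2 between F1 and F2 (adjusted p = 0.628).

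Because the scale of an animal cancels between subunits of the same animal, the balance between subunits is given as a difference of log2 values, without a test. GABRG1 minus the mean of the other 5 members ranged from -1.63 to -0.998 in F1 Veh and from -0.77 to -0.15 in F1 sGC. Every F1 sGC animal thus had more GABRG1 relative to the other members than every F1 Veh animal, a mean difference of 0.72. The mean of the other members includes GABRD, whose own log2 fold change in F1 was -0.50. On the size factor scale 7.07% of all genes were higher in every F1 sGC than in every F1 Veh animal. In F2 and F3 the groups overlapped, with mean differences of 0.14 and -0.23.

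GABRD minus the mean of the other 5 members was -1.73, -1.84, -1.64, -0.98 and -1.95 in F1 Veh replicates 1 to 5 and -2.67, -2.75, -1.95, -1.88 and -2.26 in F1 sGC. The groups overlapped only through Veh replicate 5 and sGC replicate 4, and the mean difference was -0.67. In F3 it ranged from -2.86 to -2.30 in Veh and from -2.40 to -2.06 in sGC, a mean difference of 0.43, and the 2 second-batch animals were the lowest of the sGC group. The mean of GABRA5 and GABRD minus that of GABRA2 and GABRA3, the extrasynaptic against the synaptic members, differed by -0.22 in F1, -0.044 in F2 and 0.18 in F3. These groups overlapped in every generation, and GABRA5 minus the same alpha subunits differed by 0.094, 0.062 and -0.013.

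**Figure D3:**
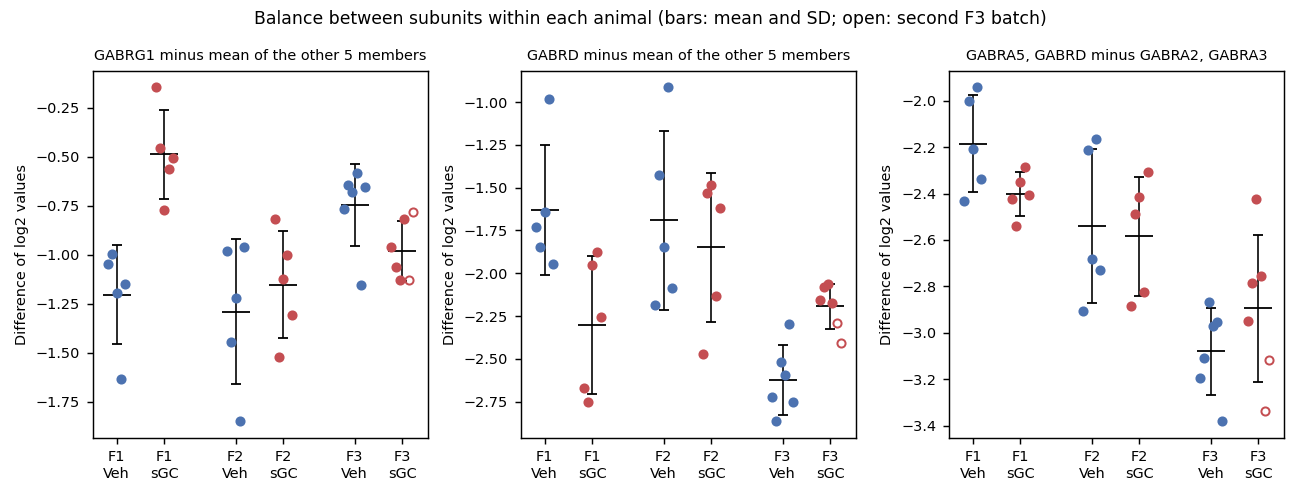
Difference of log2 values within each animal (y axis) by generation and treatment (x axis) for GABRG1 and for GABRD minus the mean of the other 5 members, and for the extrasynaptic minus the synaptic members, with mean and SD as bars and second-batch F3 animals open. The F1 groups were apart for GABRG1 (highest Veh -0.998, lowest sGC -0.77), and the other balances overlapped. On the size factor scale 7.07% of all genes were higher in every F1 sGC than in every F1 Veh animal.

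Of the other subunit genes, GABRA4, GABRG3, GABRE and GABRQ were tested and none of them passed on the deposited scale, while GABRR2, a rho subunit best known from retina, had a mean under 10 normalized counts in each generation. GABRA4, the usual forebrain partner of delta, was 956, 945, 1003, 1502 and 858 normalized counts in F1 Veh and 683, 791, 864, 718 and 565 in F1 sGC. Only sGC replicate 3 reached the Veh range, and the log2 fold change was -0.52 ± 0.15 (SE; adjusted p = 0.101). With size factors GABRA4 fell by 0.59 on the log2 scale (adjusted p = 0.0448), and 8.86% of genes fell. GABRD and GABRA4 thus lay lower together in F1 sGC, and GABRD minus GABRA4 had means of -0.76 in Veh and -0.73 in sGC. In F3, where GABRD was higher, GABRA4 had a log2 fold change of 0.077 ± 0.12 (SE; adjusted p = 0.832).

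GABRG3, a further gamma subunit, had log2 fold changes of 0.18, 0.085 and 0.036 in F1, F2 and F3. GABRE and GABRQ encode the epsilon and theta subunits, which are enriched in hypothalamus. GABRQ had a log2 fold change of 0.26 ± 0.12 (SE; adjusted p = 0.424) in F2 and -0.28 ± 0.14 (SE; adjusted p = 0.394) in F3. GABRE lay between -0.098 and 0.16, and none of these passed. The genes of GABRG1, GABRA2, GABRA4 and GABRB1 form a cluster kept in mammals, and of the 3 analysed, log2 fold changes in F1 were 0.66, -0.0075 and -0.52.

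Animals of the same group differed in their subunits in a patterned way, described by correlations of deviations from the group mean over the 32 animals of the 3 tables. These points share tables, sequencing runs and the authors' correction, and are no test. On the deposited scale GABRA2 and GABRA3 had a Pearson r of 0.89 (Spearman rho = 0.90, n = 32) and 0.85 without the 2 most extreme animals. It was 0.93 in F1 and 0.90 in F2, but 0.13 in F3, where both varied little. With size factors r for this pair was 0.77 (rho = 0.66), and 0.70 in F1, so part of it depended on the scale of the animals. GABRB2 and GABRA4 had r = 0.74 (rho = 0.50), which fell to 0.44 without the 2 most extreme animals, and r = 0.80 in F3. With size factors r for GABRB2 and GABRA4 was higher, at 0.83.

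GABRD followed GABRA4 with r = 0.65 (rho = 0.37), which fell to 0.33 without the 2 most extreme animals. Those were F2 Veh replicates 1 and 4, with 521 and 2060 normalized counts of GABRA4 and 362 and 1099 of GABRD. In F3 their correlation was -0.16. GABRD and GABRG1 had r = -0.23 on the deposited scale and -0.40 with size factors.

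**Figure D4:**
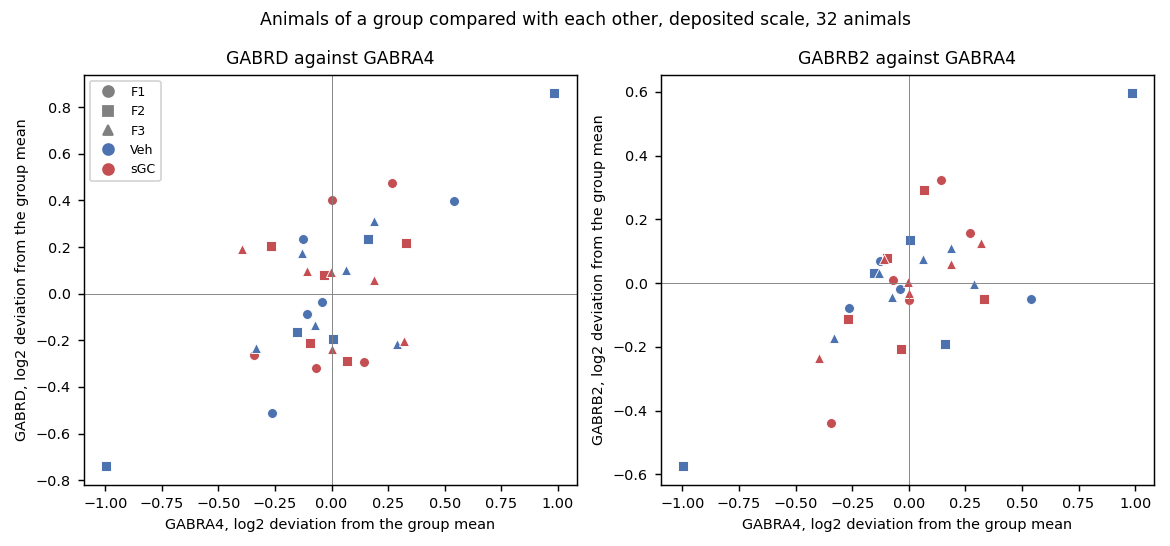
Log2 deviation of each of 32 animals from its group mean on the deposited scale for GABRD and for GABRB2 (y axes) against GABRA4 (x axes), with generations as shapes and treatments as colours. Without the 2 most extreme animals r fell from 0.65 to 0.33 for GABRD and from 0.74 to 0.44 for GABRB2.

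**Figure D5:**
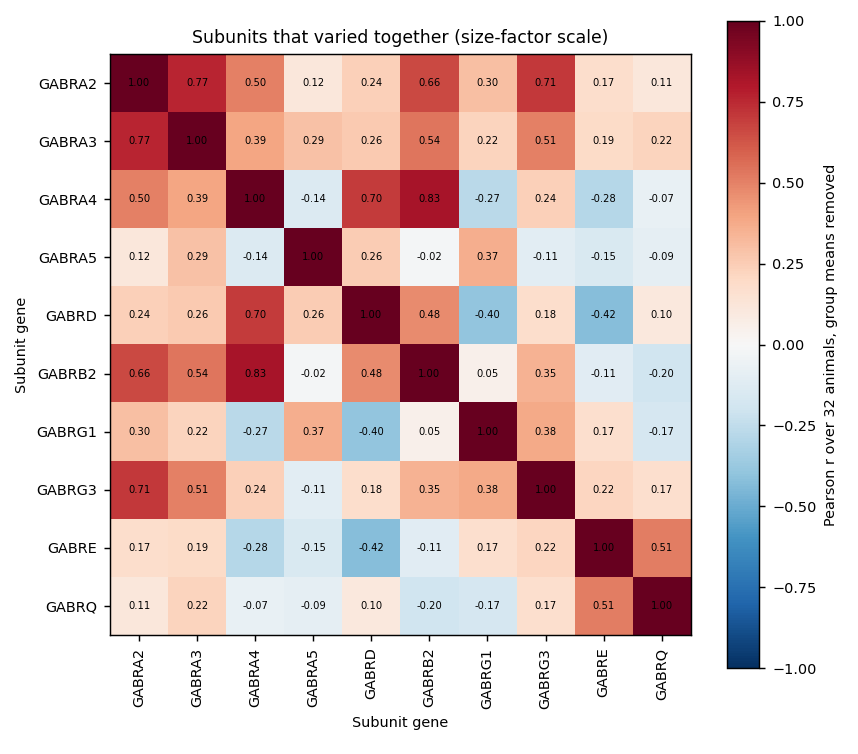
Pearson correlation over 32 animals, with group means removed and values on the size factor scale, between the 6 members and 4 other subunits (both axes list the subunit genes). GABRB2 with GABRA4 (0.83) and GABRA2 with GABRA3 (0.77) were the highest shown, and GABRD had negative values with GABRG1 (-0.40) and GABRE (-0.42).

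Over 11429 genes, the pattern most like that of each member was found by the same correlation on the deposited scale, as a description over 32 animals. The nearest gene to GABRA2 was SCRN1, which encodes a secernin (r = 0.96), followed by SLC3A1 (0.95) and PREPL (0.94). Among the genes most like GABRA3 were ASIC1, which encodes an acid-sensing ion channel (r = 0.94), and DAAM1 (0.93). GABRB2 was closest to RIMS1, an organizer of the presynaptic active zone (r = 0.93), followed by ZDHHC22 and FAR2.

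GABRA5 was closest to CALB1, the gene of the calcium buffer calbindin (r = 0.87), then TOX2 and BAHCC1. GABRG1 was closest to RGMB, the gene of a co-receptor of bone morphogenetic proteins (r = 0.92), then SSTR1, a somatostatin receptor (0.89), and JAZF1. GABRD was closest to PCSK2, the gene of a prohormone convertase of neuroendocrine cells (r = 0.87), and NEURL1B was also among the 3 most like it (0.85). With size factors 2 of the 3 nearest genes were kept for GABRA2, GABRA5 and GABRG1, while RIMS1 for GABRB2 and PCSK2 for GABRD stayed among the 3.

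Of 60 other genes on a list of the GABA pathway, the other subunits included, 45 were tested in F1 and 47 each in F2 and F3, and none passed on the deposited scale. In F1 9 had an unadjusted p under 0.05 and were higher in sGC and 1 was lower, beside 12.1% and 1.46% of all genes. The median log2 fold change over the list was 0.17 in F1, beside 0.07 over all genes. GAD2 and GAD1, which encode the enzymes that make GABA, had log2 fold changes of 0.64 ± 0.19 (SE; adjusted p = 0.123) and 0.45 ± 0.20 (SE; adjusted p = 0.323). SLC32A1, the vesicular GABA transporter, had 0.49 ± 0.19 (SE; adjusted p = 0.262), and SLC6A11, a GABA transporter of astrocytes, 0.40 ± 0.15 (SE; adjusted p = 0.204).

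SLC12A2, a chloride importer that helps set the driving force of the receptors, was higher in every F1 sGC animal (1104 to 2150 normalized counts) than in any Veh animal (982 to 1100), with a log2 fold change of 0.43 ± 0.15 (SE; adjusted p = 0.179). In F1 2.04% of genes did not overlap between the groups. In F2 SLC12A2 was lower in every sGC animal (830 to 1289) than in any Veh animal (1336 to 1997), with -0.49 ± 0.13 (SE; adjusted p = 0.157), where 2.4% of genes did not overlap. With size factors the groups overlapped for SLC12A2 in both generations. Oligodendrocyte markers moved with it in F2. All 7 genes of the list had lower values in sGC at an unadjusted p under 0.05, beside 9.17% of all genes. Among them were MOBP (-0.95, adjusted p = 0.0622) and MBP (-0.88, adjusted p = 0.0622), and none of the 7 passed. Their sum was 126102 to 227623 normalized counts in F2 Veh and 66382 to 107289 in F2 sGC. Of the endothelial list 3 of 4 genes were also lower in F2 at that level, beside the same 9.17% of all genes. The part of these cells in the values of SLC12A2 and WNK1 was not tested. The kinase gene WNK1, which regulates such transporters, had 0.36 ± 0.12 (SE; adjusted p = 0.159) in F1 and -0.19 ± 0.058 (SE; adjusted p = 0.224) in F2. Its relative WNK3 had 0.36 in F1 and KCTD16, an auxiliary subunit of GABA-B receptors, 0.35, with adjusted p-values of 0.231 and 0.230.

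With size factors 4 of the 45 genes rose and 3 fell in F1, beside 8.47% and 8.86% of all genes. WNK1 (0.30, adjusted p = 0.0115) and WNK3 (0.30, adjusted p = 0.0140) were among those that rose. GABARAPL2 and GABARAPL1, which belong to the family of receptor trafficking and autophagy proteins, fell with GABRA4, by 0.28 and 0.13 on the log2 scale (adjusted p = 0.00224 and 0.0380). In F2 1 of 47 listed genes had an unadjusted p under 0.05 and was higher in sGC and 3 were lower, beside 2.49% and 9.17% of all genes, and the median over the list was -0.09. GABARAPL2 then had -0.18 ± 0.068 (SE; adjusted p = 0.351) on the deposited scale. In F3 the smallest p on the list was that of IQSEC3, a protein of inhibitory synapses, with -0.14 ± 0.035 (SE; adjusted p = 0.128). Also under an unadjusted p of 0.05 in F3 were TRAK2, KCTD8, ABAT, TRAK1 and SLC6A11 with lower values and DBI, the gene of the endozepine precursor, with 0.11. In F3 1 of 47 genes was higher and 6 lower at that level, beside 6.19% and 6.92% of all genes.

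Markers of cells and of neighbouring regions moved with GABRG1 and GABRD. In F1 the summed PVN neuron list was 92970 to 212210 normalized counts in Veh and 22203, 32312, 147100, 183732 and 46805 in sGC replicates 1 to 5. All 8 genes of that list had lower values in sGC, where 63.8% of all genes had higher values. At an unadjusted p under 0.05, 5 of the 8 were lower, beside 1.46% of all genes. The suprachiasmatic list of 4 genes detected out of 6 ranged from 1226 to 2311 in Veh and from 2278 to 4067 in sGC, and its members LHX1 (1.04, adjusted p = 0.0247) and RORB (0.69, adjusted p = 0.0432) rose in F1. SIX6 (1.07, adjusted p = 0.167) and VIP (-0.41, adjusted p = 0.597) did not pass, so 3 of the 4 had higher values in sGC, beside 63.8% of all genes, and VIP lower. No member of either list was at 0 in all animals of a group. The F1 sGC replicates 1, 2 and 5, with the lowest PVN sums, had the lowest GABRD of their group.

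The endothelial list, with 4 of 4 genes detected, was 7976 and 7024 in F1 sGC replicates 1 and 2 and 3644 to 5679 in the other 8 F1 animals. Those 2 animals were left out in an alternative fit because their PVN sums were the lowest. Without them the F1 log2 fold change was 0.53 (adjusted p = 0.137) for GABRG1 and -0.29 (adjusted p = 0.757) for GABRD. The thalamic list, with 7 of 8 genes detected in F1, was 8537 to 15895 in the other animals and 30934 in Veh replicate 4, which had the highest GABRD and GABRA4. In F1 4 of the 7 thalamic genes were lower in sGC at an unadjusted p under 0.05, beside 1.46% of all genes. They were GBX2 (-2.39), TCF7L2 (-1.41), NTNG1 (-0.81) and CALB2 (-0.70), and none passed, while 2 of the 7 had higher values in sGC. In F2 Veh replicate 4 had both the highest thalamic sum (27142, others 9886 to 23345) and the highest GABRD and GABRA4. In F3 the thalamic sums were 9418 to 12803 in Veh and 9379 to 16783 in sGC. Over the 32 animals GABRD correlated with the thalamic sum at r = 0.71 on the size factor scale (0.59 without 2 animals). By generation this r was 0.38 in F1, 0.91 in F2 and 0.73 in F3. In the same 32 animals GABRD correlated with the endothelial sum at r = -0.69 (-0.78, -0.75 and -0.50 in F1, F2 and F3). GABRG1 correlated with the suprachiasmatic sum at 0.55, but at only 0.27 in F1, against 0.78 in F2 and 0.72 in F3. With the PVN sum GABRG1 had r = -0.55 (-0.44, -0.84 and -0.66 in F1, F2 and F3). GABRD also correlated with the microglial (-0.61), astrocyte (-0.52), cortex and striatum (0.51), PVN (0.49) and ependymal (0.39) sums. Its r with the remaining lists lay from -0.21 for oligodendrocytes to 0.19 for neurons. GABRG1 also had r = -0.45 with the thalamic sum and -0.41 with the cortex and striatum sum. Such sums mainly follow the genes with the highest counts. AVP and OXT made up most of the PVN sum, RORB most of the suprachiasmatic sum, and CALB2 and SLC17A6 most of the thalamic sum. The part of these cells and regions in the results was not tested.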

How the data were processed

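RNA-seq of PVN punches was analysed in 32 of 34 samples, and 2 re-sequenced F3 libraries were left out. Groups came from the labels, and replicates were numbered in the order of deposit. The authors aligned reads to cavPor3 (TopHat2 and edgeR stand in the submitters' notes without versions), counted them on genes, corrected F3 batches with ComBat and normalized by RUVSeq residuals. What the authors deposited is therefore a whole-number score of normalized abundance that no longer counts reads. Their comparison columns (log fold change, log CPM, likelihood ratio, p-value and false discovery rate) were not used. From the values, 1, 1 and 2 directions had been removed in F1, F2 and F3 (singular values under 0.1 of the first).

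The members, gene lists and tests were chosen with earlier results of these data known. Named were all subunits in the tables, list genes with an unadjusted p under 0.05 (at most 8 per generation), and the 3 genes most like each member, and some genes these rules name are not reported here. Each table was fitted by limma 3.58.1 under R 4.3.3, using lmFit and eBayes with a mean-variance trend. Values entered as log2(value + 1), genes averaging under 10 were dropped, and p-values were adjusted over all genes by Benjamini-Hochberg. Differences between generations came from 1 limma fit of 6 group means over 11429 genes. Alternatives were size factors, equal totals, quantile normalization, other pseudocounts and filters, removed directions or the F3 batch as covariates, leaving out animals and exact permutation. A spread of its own for each generation, the removal of 2 F1 animals and a block on column numbers were added after seeing the data. Tested on simulated data, drawn independently for each gene, the F1 fit recovered 89% of 200 genes changed by 1 on the log2 scale among 11874. No smaller changes were simulated, and every log2 fold change of a member on the deposited scale was smaller. The fit of differences (F1 minus F3) recovered 90.1% of 192 among 11429 with 37 unchanged genes called, and 87.5% with 16 called under a spread for each generation. The labels give separate animals, whose number sets the precision here.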

Additional observations from a re-analysis of the deposited data

Results flagged for a closer look

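In F1 Veh replicate 4 GABRA4 stood apart from the other 4 animals of its group, with a log2 value of 10.55 where the others lay between 9.75 and 9.97. GABRA5 stood apart in F1 Veh replicate 2, with 10.94 where the others lay between 9.77 and 10.03. Of 78 groups of values examined (13 subunits in 6 groups), 2 had an animal apart by Dixon's criterion, where chance gives about 3.9. GABRG1 was flagged because its log2 fold change differed between F1 and F3 by 0.80 (limma over 32 animals, adjusted p = 0.0350). Values of the markers that moved with these animals are given in the report.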

How the results depend on the processing

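In F1 78 genes passed on the deposited scale, against 2058 with size factors, 1943 with equal totals and 2084 with quantile normalization. In F2 42 passed with quantile normalization and 17 with a mean of at least 50, against 0 by limma on the deposited scale, where 1395 had an unadjusted p under 0.05. In F3 1 passed with the removed directions as covariates, 2 in the first batch alone and 3 with batch as a covariate, against 6. GABRG1 in F1 passed with size factors (0.60), equal totals (0.60), quantile normalization (0.59) and a mean of at least 50 (0.66). Its difference of 0.80 between F1 and F3 lost the threshold with a spread of its own for each generation on the deposited scale (adjusted p = 0.0862). That of GABRD passed with size factors under either spread (-0.97), with equal totals (-0.97) and with quantile normalization (-1.02). Some small values turned direction with size factors (under either spread), equal totals and quantile normalization, given in this order. They were -0.033, -0.027 and -0.037 for GABRB2 in F1, 0.058, 0.068 and 0.073 for GABRA2 in F2, and 0.039, 0.049 and 0.061 for GABRA3 in F2. GABRA3 in F1 turned to -0.0024 with quantile normalization, and GABRB2 in F1 to -0.081 without sGC replicates 1 and 2. The differences F1 minus F2 turned to -0.13, -0.13 and -0.16 for GABRA2, -0.030, -0.034 and -0.063 for GABRA3, and -0.047, -0.051 and -0.057 for GABRA5. F2 minus F3 turned to 0.0024, 0.015 and 0.026 for GABRA2 and to 0.025, 0.037 and 0.052 for GABRA3. F1 minus F3 turned to -0.0092, -0.00034 and -0.015 for GABRB2, and for GABRA3 to -0.0053 with size factors and -0.011 with quantile normalization. The cause was not tested. With size factors 1 of the 3 genes most like GABRB2 and GABRD was shared. The exact permutation tests of GABRD in F1 (-0.50, p = 0.0794), of GABRG1 in F1 minus F2 (0.59, p = 0.0910) and of GABRD in F2 minus F3 (-0.59, p = 0.0609) missed 0.05, which the unadjusted limma p had passed.

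Leaving out 1 animal at a time, the F1 count ranged from 15 (without Veh replicate 4) to 474 (without Veh replicate 2), F2 from 0 to 114 (without Veh replicate 4) and F3 from 1 to 15 (without sGC replicate 4). In F1 the range was 0.54 (adjusted p = 0.192, without Veh replicate 4) to 0.81 (adjusted p = 0.0124, without Veh replicate 2) for GABRG1, passing in 3 of 10 (without Veh replicate 2, sGC replicate 3 or sGC replicate 5), -0.073 to 0.076 for GABRA2, -0.0016 to 0.17 for GABRA3, 0.050 (without Veh replicate 4) to 0.34 (without Veh replicate 2) for GABRA5, -0.62 to -0.40 for GABRD and -0.051 to 0.14 for GABRB2. In F2 it was -0.083 to 0.031 for GABRA2, -0.12 to 0.027 for GABRA3, -0.036 to 0.11 for GABRA5, -0.28 to 0.0075 for GABRB2, -0.057 to 0.19 for GABRG1 and -0.36 to 0.040 for GABRD. In F3 it was -0.11 to 0.13 for GABRA5 and -0.059 to 0.022 for GABRB2, and GABRD stayed between 0.37 and 0.48 (adjusted p from 0.0696 to 0.262). F1 minus F3 ranged from 0.68 to 0.95 for GABRG1, which lost the threshold in 10 of 22 (F1 Veh 3, 4 and 5, F1 sGC 1 and 2, F3 Veh 2, 3 and 4, F3 sGC 2 and 5), from -1.04 to -0.81 for GABRD, which passed it in 3 of 22 (F1 Veh 5, F1 sGC 3 and 4), -0.13 to 0.022 for GABRA2, -0.014 to 0.16 for GABRA3, -0.0031 to 0.32 for GABRA5 and -0.026 to 0.16 for GABRB2. F1 minus F2 ranged from 0.47 to 0.74 for GABRG1, which passed in 3 of 20 (F1 Veh 2, F1 sGC 5, F2 sGC 1), and -0.057 to 0.092 for GABRA2. F2 minus F3 ranged from -0.13 to 0.014 for GABRA3, -0.093 to 0.15 for GABRA5 and -0.26 to 0.032 for GABRB2.

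The deposited columns carry numbers within each group that both groups share, and nothing states that a number marks a shared litter or day. Deviations of same-numbered animals correlated above 0.1 in 1 of 5 pairs in F1, 1 of 5 in F2 and 2 of 6 in F3 (range -0.53 to 0.34). Taken from the means of such small groups, these correlations cannot tell whether same-numbered animals share more than a number. Not every animal correlated best with its own number (1 of 10, 2 of 10 and 1 of 12). With these numbers as a replicate block, added after seeing the data, limma passed 146 genes in F1, 6 in F2 and 0 in F3 (1127 at an unadjusted p under 0.05), and GABRG1 in F1 (0.66, adjusted p = 0.0430) and GABRD in F1 minus F3 (-0.91, adjusted p = 0.0307) passed. No other call of a member changed under the block.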
